A study of Mus musculus with 206 samples.

Results

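The cytosolic ribosomal protein genes were followed through H3K27ac peak lists of neuronal nuclei from 4 mouse brain regions. Members were the protein-coding genes of the GENCODE M21 annotation (mm10) whose symbol is Rpl or Rps with a number, together with Rplp0, Rplp1, Rplp2 and Rpsa. Rps6k kinase genes and Rps19bp1, which encodes a binding partner, were left out. 6 protein-coding records whose symbols end in -ps, as pseudogenes do, did not match either. The rule gave 85 of 21938 protein-coding genes, 52 of the large and 33 of the small ribosomal subunit, on 19 chromosomes. A member was marked in a library when a peak overlapped the 1 kb on either side of the 5′ end of its gene record, called its promoter here.

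The mice were wild-type C57BL/6NTac animals in 4 groups, named by perinatal and then adult treatment. MOR animals came from dams with morphine minipumps (10 mg/kg per day) and received morphine (10 mg/kg) by 2 injections a day from postnatal day 1 to 14, SAL animals had saline by the same routes, and pups of every group were raised by drug-naive surrogate dams. As adults they were given lipopolysaccharide (LPS, a bacterial endotoxin) or saline, and tissue was taken 2 h later from the prefrontal cortex (PFC), hippocampus, hypothalamus and striatum. Each library came from about 10000 nuclei of 1 animal that had been sorted for NeuN, a neuronal nuclear protein, by MOWChIP-seq, a microfluidic chromatin immunoprecipitation. PFC gave 14 MOR-LPS, 11 SAL-LPS, 9 MOR-SAL and 8 SAL-SAL libraries that were used. The other 3 brain regions gave, in that order of groups, 10, 12, 11 and 11 (hippocampus), 10, 11, 12 and 8 (hypothalamus), and 15, 13, 7 and 10 (striatum). Litters received the perinatal treatment as a whole, so animals of a litter share it. PFC libraries were made with another kit (xGen 2S) than those of the other 3 brain regions (ThruPLEX), so kit and PFC cannot be told apart.

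Ribosomal proteins join ribosomal RNA in the nucleolus to form the subunits that carry out translation in the cytosol. Most of their genes are short, expressed in nearly every cell, and driven by promoters with many CpG dinucleotides and no TATA box. Their mRNAs begin with a run of pyrimidines, the TOP sequence, through which the mTOR pathway controls their translation, a control studied in neurons for its part in synaptic plasticity. H3K27ac, acetylation of lysine 27 of histone H3, lies on nucleosomes that flank active promoters and enhancers. In neuronal nuclei pooled from many cells, fewer cells with the mark and less of the mark in each cell cannot be told apart.

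Promoter sequences are shown for 8 members that the comparisons below return to most often. Entries were found for 65 of the 85 members among the RefSeq promoter sequences (GRCm38.p6), and Rpl21, Rpl3, Rpl7, Rpl29 and Rpl32 are among the 20 without one. Each line gives the 90 bases before the RefSeq start and the first 20 of the transcript, 5′ to 3′, with the motif matches found by search in capitals.
Rps6, chr4:86857348-86857457, minus strand: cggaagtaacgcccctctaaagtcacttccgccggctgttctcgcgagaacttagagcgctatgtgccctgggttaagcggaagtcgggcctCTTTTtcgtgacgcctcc
Rpl10a, chr17:28328381-28328490, plus strand: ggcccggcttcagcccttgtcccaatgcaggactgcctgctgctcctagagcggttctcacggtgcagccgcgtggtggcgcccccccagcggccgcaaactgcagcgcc
Rpl31, chr1:39367761-39367870, plus strand: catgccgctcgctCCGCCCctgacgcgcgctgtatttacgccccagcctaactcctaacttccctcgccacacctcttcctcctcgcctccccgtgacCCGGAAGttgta
Rpl27a, chr7:109519105-109519214, plus strand: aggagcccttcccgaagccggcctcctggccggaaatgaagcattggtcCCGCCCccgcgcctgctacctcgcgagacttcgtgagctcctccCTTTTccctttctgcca
Rps27l, chr9:66945996-66946105, plus strand: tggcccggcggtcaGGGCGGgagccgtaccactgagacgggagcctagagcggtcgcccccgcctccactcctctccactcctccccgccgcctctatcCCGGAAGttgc
Rpl22l1, chr3:28805418-28805527, plus strand: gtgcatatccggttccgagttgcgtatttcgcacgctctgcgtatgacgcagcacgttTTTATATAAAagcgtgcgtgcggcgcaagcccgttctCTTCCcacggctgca
Rps10, chr17:27635225-27635334, minus strand: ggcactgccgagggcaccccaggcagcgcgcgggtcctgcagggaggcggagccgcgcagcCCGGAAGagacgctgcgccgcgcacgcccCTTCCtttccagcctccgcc
Rpl4, chr9:64173297-64173406, plus strand: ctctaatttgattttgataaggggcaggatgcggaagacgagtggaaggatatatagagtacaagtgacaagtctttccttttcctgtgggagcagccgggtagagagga
The motifs searched on both strands were CCGGAAG, the core site of ETS factors, AAGATGG, that of YY1, GGGCGG, that of Sp1, and TATAAA, the TATA box, with reverse complements counted. Pyrimidine starts were searched on the sense strand within 10 bases of the start, as CTTTT or as CTTCC. The reverse complement of the ETS site contains CTTCC, so those matches can overlap. In the whole RefSeq entry of 300 bases, of which the last 50 are transcribed, CCGGAAG was found in 25 of 65 members (38.5%) against 12.3% of 16521 promoters. AAGATGG was found in 13.8% against 6.43%, GGGCGG in 60.0% against 48.2%, and TATAAA in 9.23% against 12.9%. A pyrimidine start of either kind was found in 15 of 65 members (23.1%) against 7.81% of all promoters. In the bases shown, Rps6 and Rpl27a hold CTTTT next to the start, and Rps10 and Rpl22l1 hold CTTCC. Rpl31, Rps27l and Rps10 hold the ETS site there, and only Rpl22l1 has a match to TATAAA. In their whole entries Rps6 and Rpl27a hold the ETS site too. Rpl10a, among the members marked most often, and Rpl4 have no match by these rules in the bases shown. CTTTT and CTTCC that begin farther than 10 bases from the start, as in Rpl4, were not counted and stand in lower case. Median GC content was 57.0% in members and in all promoters, and the median ratio of observed to expected CpG was 0.87 in members and 0.60 in all.

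Other features of the members were read from the annotation. The median gene length was 3289 bp against 17425 bp over all protein-coding genes. A gene for a small nucleolar RNA (snoRNA), which guides the modification of ribosomal RNA, lay on the same strand inside 30 of the 85 members (35.3%) against 1.18% of all genes. Rpl4 held 5, and Rpl13a held 4. Another protein-coding gene started within 1 kb of 16 members (18.8%) against 12.6% of all genes, among them Rpl3 (Syngr1), Rpl4 (Zwilch), Rpl35a (Iqcg), Rps18 (Vps52), Rps27 (Rab13) and Rps27a (Clhc1), and a promoter peak there cannot be assigned to either gene.

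Lists differed widely in length, from 10809 to 143516 peaks, and the number of members marked moved with it. Full lists marked between 0 and 78 members. The Spearman correlation of list length with members marked was 0.75 over the 42 libraries of PFC, 0.91 over the 44 from hippocampus, 0.85 over the 41 from hypothalamus and 0.78 over the 45 from striatum. Each had a permutation p = 1e-05, the smallest 100000 permutations can give. The Pearson correlations were 0.84, 0.92, 0.89 and 0.74 with the same p, and 0.73, 0.91, 0.85 and 0.71 without the 2 lists farthest from the median length. So a shortened version of each list, with only its 10000 strongest peaks by −log10 p, was also used and is called the top list here. In top lists the rank correlations were 0.30 (permutation p = 0.055), 0.34 (p = 0.025), 0.41 (p = 0.0089) and 0.35 (p = 0.021) in the same order, with adjusted p of 0.059, 0.028, 0.012 and 0.026. The Pearson correlations there were 0.40, 0.40, 0.49 and 0.22 with permutation p = 0.009, 0.0078, 0.001 and 0.14, and 0.16, 0.36, 0.31 and 0.21 without the 2 most distant lists, so in PFC the relation rested on those lists.

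**Figure D1:**
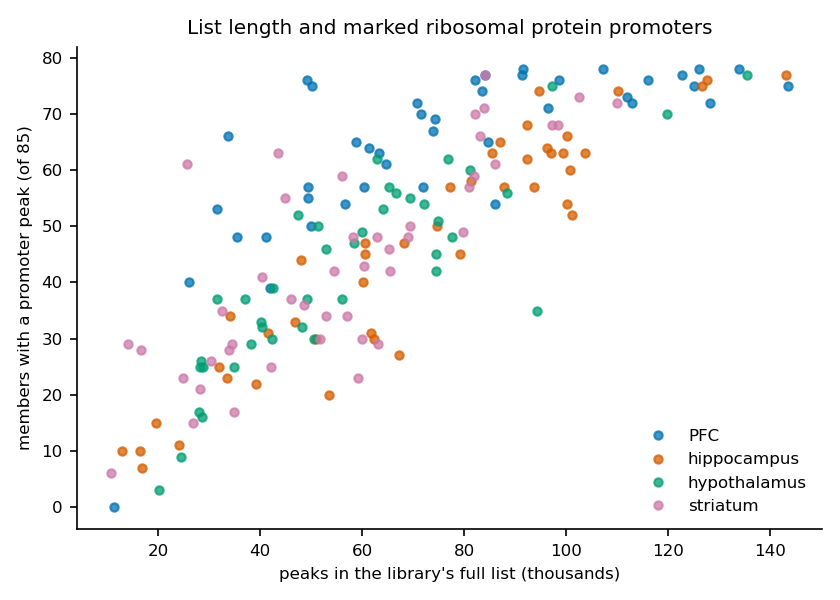
Each point is 1 of 172 libraries, with the length of its full peak list on the horizontal axis, the number of the 85 ribosomal protein promoters with a peak on the vertical axis, and the brain region as colour. Longer lists marked more members in every brain region, and PFC points reach 78 of 85.

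PFC top lists marked 30.2 ± 10.3 of the 85 members (SD, n = 42), or 35.5%, where all protein-coding genes were marked at 14.7%. Hippocampus top lists marked 11.0 ± 5.32 members (n = 44), 12.9% against 8.27% of all genes. Hypothalamus lists marked 12.4 ± 5.16 (n = 41), 14.6% against 10.4%, and striatum lists 15.4 ± 7.70 (n = 45), 18.1% against 9.79%. The members were thus marked more often than the average gene in every brain region, with the widest gap in PFC. In full lists the shares were 75.9%, 54.1%, 49.4% and 51.6% of members in the same order, against 36.8%, 29.3%, 29.6% and 27.5% of all genes. The 78 genes of mitochondrial ribosomal proteins, which translate inside mitochondria, gave 32.4%, 12.8%, 18.8% and 16.2% in top lists, so a raised share was not particular to the cytosolic set. Large-subunit members were marked at 39.6%, 13.5%, 15.8% and 19.8%, and small-subunit members at 29.2%, 12.1%, 12.8% and 15.3%. The large subunit had the higher share in every brain region. Both were counted in the same libraries, so the SD over libraries does not measure the gap between them, which was not tested.

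**Figure D2:**
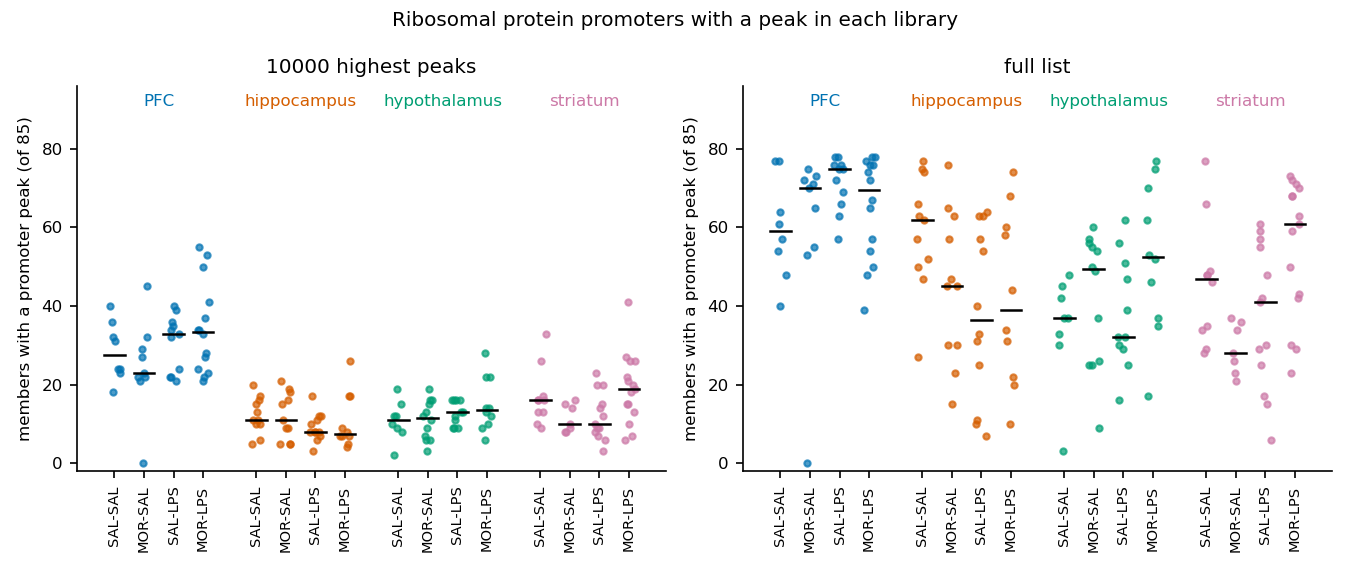
Each point is 1 library, grouped by brain region and treatment, with the number of the 85 members marked in its top list (left) and full list (right) on the vertical axis and the group median as a bar. PFC top lists reached 55 members, and those of the other brain regions at most 41.

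Members differed from each other far more than subunits did. The most often marked was Rpl21 (chr5:146832890-146837032), a large-subunit protein gene, with a top-list peak in 121 of 172 libraries: 39 of the 42 made from PFC, 26 of the 44 hippocampal ones, 22 of 41 hypothalamic and 34 of 45 striatal. Rps6 (chr4:86854660-86857412), whose product is the small-subunit protein phosphorylated by S6 kinase downstream of mTOR, was marked in 113, made up of 37, 24, 22 and 30 libraries in that order. Rpl10a (chr17:28328471-28331033), whose tagged protein is widely used to pull ribosomes out of chosen neurons, was also marked in 113. Rplp2, which forms the stalk that recruits elongation factors together with Rplp0 and Rplp1, followed with 107, then Rpl19 with 102, Rpl3 with 96, Rpl7 with 95, Rpl27a with 86, Rps23 with 84 and Rpl29 with 74. Rpl7 and Rpl19 were marked in 41 of 42 PFC top lists each, but in 16 and 15 of 44 in the hippocampus. The peaks counted for Rpl3 had median summits 822.5 to 896 bp downstream of the 5′ end of its gene record, with the start of Syngr1 also within 1 kb.

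The stalk genes were not marked alike. Rplp2 had a top-list peak in 40 of 42 PFC libraries, Rplp1 in 13, and Rplp0 in 0. Over all 172 libraries the counts were 107, 25 and 9, and in full lists 143, 121 and 45.

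At the other end, 7 members had a top-list peak in 0 of 172 libraries: Rpl10l, Rpl39l, Rpl3l, Rpl17, Rps25, Rps2 and Rps24. Rps27rt had 2, and Rps20, Rps4x, Rpl5, Rpl18 and Rpl35 had 5 each. The gene record of some members begins upstream of their main start, and with any start of a protein-coding transcript allowed, full-list counts were 107 for Rpl17, 80 for Rps2, 95 for Rps24, 145 for Rps14, 120 for Rpl18 and 113 for Rps10, against 0, 2, 22, 93, 69 and 97 at the gene record. Rps25 had 2, and Rpl10l, Rpl39l and Rpl3l stayed at 0. These last 3 are paralogs known for expression outside the nervous system, Rpl10l and Rpl39l in male germ cells and Rpl3l in muscle. Of the 8 symbols that end as paralogs or retrocopies do, the other 5 were marked in 48 (Rps27l), 27 (Rpl7l1), 22 (Rpl22l1), 6 (Rpl36al) and 2 (Rps27rt) top lists. Peaks at near-identical copies depend on how reads that map to several places were treated, which was not stated in the sources used here.

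**Figure D3:**
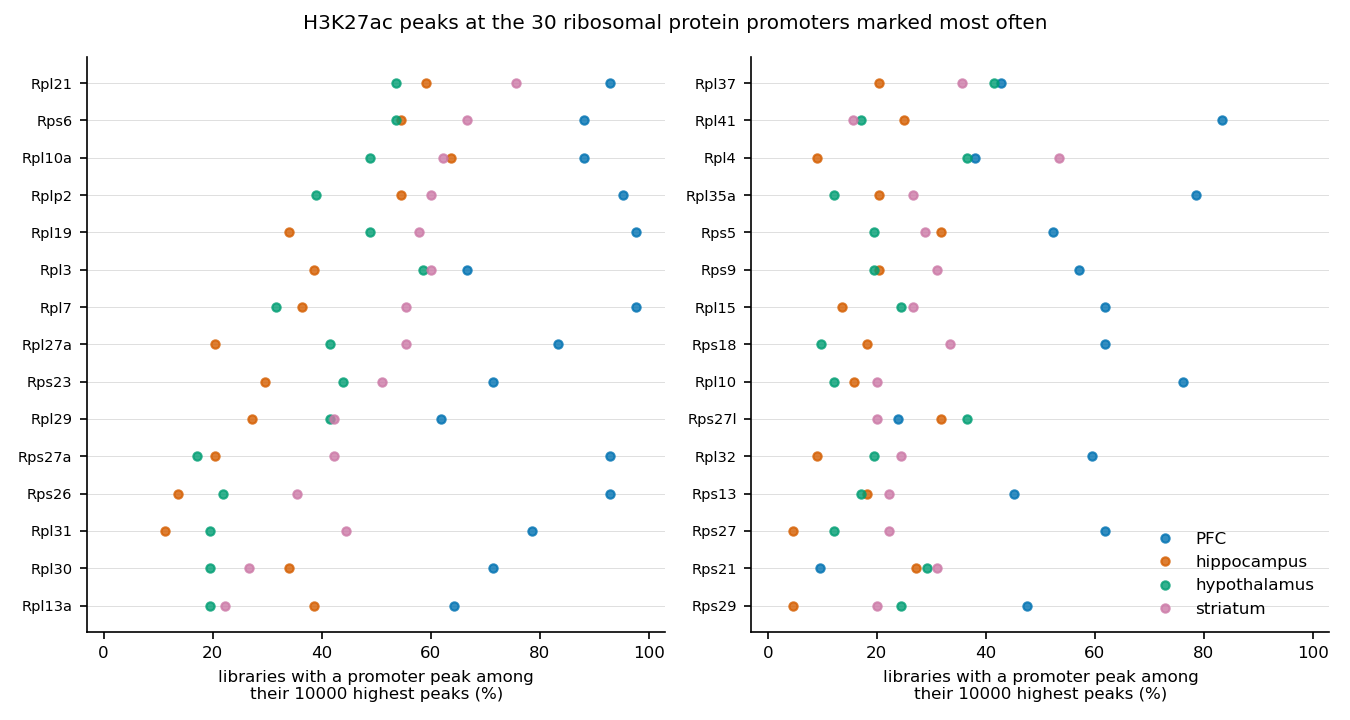
Each row is 1 of the 30 members marked in most top lists, in order of that number, and each point is the percentage of a brain region's libraries with such a peak (n = 42, 44, 41 and 45 from PFC to striatum). PFC points lie to the right of the other 3 brain regions for all but Rpl4, Rps27l and Rps21.

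The authors' consensus lists, merged over the libraries of a brain region, held regions at the promoters of 47 members for PFC (48 of 18272 regions), 10 for hippocampus (10 of 16201), 14 for hypothalamus (14 of 13788) and 73 for striatum (73 of 60013). That is 55.3%, 11.8%, 16.5% and 85.9% of members, against 22.7%, 15.3%, 17.6% and 45.2% of all protein-coding genes. The lists differ in length, so these shares are not compared between brain regions. Rpl10a, Rpl19, Rpl21, Rpl27a, Rpl3, Rpl31 and Rps6 had a region in all 4 lists. Median widths of member regions were 2207.5, 3576.5, 2454 and 1845 bp, against 2450.5, 3941, 2955 and 1997.5 bp over promoter regions.

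Peaks at members were also measured for shape in the top lists, as medians over libraries of each library's median. In the hippocampus, hypothalamus and striatum they were 582.8, 464 and 548.5 bp wide against 687.2, 547 and 654.5 bp over all protein-coding promoters, and narrower in 34 of 44, 31 of 41 and 40 of 45 libraries. In PFC they were 702 bp against 683 bp, and narrower in 19 of the 41 libraries that had any. Peaks at mitochondrial ribosomal protein genes measured 589.5, 477.5 and 558 bp in those 3 brain regions, close to the cytosolic members. The median summit position relative to the 5′ end of the gene record was −122.5, −162.5 and −207 bp (upstream) in those 3 brain regions and +45 bp in PFC, where the kit differed. Over all protein-coding promoters it was +68.5, −58, −57.5 and −14 bp in the same order, and at mitochondrial ribosomal protein genes −29.75, +145.5, +108.5 and +132 bp. At Rpl21 the median peak was 1430 bp wide in PFC (39 peaks, median fold enrichment 13.0) and 764 bp in the hypothalamus (22 peaks, 7.03). At Rps6 it was 1359 bp in PFC (37 peaks, 12.2) and 577 bp in the hypothalamus (22 peaks, 6.77).

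Promoters were then compared between brain regions by rank. Every protein-coding promoter was ranked within its library from 0 to 100 by its highest −log10 p, and promoters without a peak shared the middle of the unmarked ranks, which lay between 23.8 and 47.9 depending on list length. Ranks of 1 brain region were compared with the mean of the other 3 by limma over 172 libraries with treatment and sex as terms, and called at a Benjamini-Hochberg adjusted p under 0.05 over the 11997 promoters marked in at least 20% of the libraries of 1 or more brain regions. Of the 85 members, 79 passed that filter, 72 of them in every brain region, Rps24 through PFC alone and Rps27rt through the hippocampus alone. Rpl10l, Rpl17, Rpl39l, Rpl3l, Rps2 and Rps25 did not pass.

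In PFC 56 of 79 members ranked higher and 1 lower, where 34.7% and 16.4% of all promoters tested were called higher and lower. Rps24, among the 79, passed the filter through PFC alone, so a higher rank there would follow from how it was selected. The median difference of the 79 was 11.8 percentile points against 3.72 over all promoters tested. In top lists 41 of 51 members tested ranked higher and 1 lower (background 45.9% and 14%), and 39 members were called in the same direction in full and top lists. Some of the 51, among them Rpl22l1 and Rpl23, entered the top-list test through PFC alone. Such selection favours higher ranks in PFC, and its part in the count of 41 was not tested. Large-subunit members were higher in 36 of 48 and small-subunit members in 20 of 31. Mitochondrial ribosomal protein genes were higher in 47 of 75. The other gene lists of translation had the same direction: 9 of 13 other genes with TOP mRNAs, 16 of 19 ribosome assembly genes, 6 of 10 mTOR pathway genes, and Fau and Rack1, which encode ribosomal proteins under other symbols, ranked higher in PFC, and 0 genes of these 4 lists ranked lower.

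Rps26, which lies at the mRNA exit channel of the small subunit, is shown first. Its promoter ranked between 47.9 and 99.8 in PFC (median 96.8). Hippocampus ranks ran from 32.7 to 98.0 (median 75.1), hypothalamus ranks from 31.4 to 98.8 (median 69.1), and striatum ranks from 34.9 to 99.8 (median 84.4). Ranges overlapped, but 41 of 42 PFC libraries had a peak in the full list against 29 of 44, 23 of 41 and 31 of 45. The difference was +25.3 points (SE 3.54, limma adjusted p = 3.0e-10), and +35.3 (SE 4.07) in top lists.

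Rpl35a, a large-subunit gene mutated in some cases of Diamond-Blackfan anaemia, had a mean rank of 91.5 ± 13.1 in PFC (SD over libraries), and of 67.3 ± 22.9, 60.1 ± 23.1 and 70.8 ± 23.0 in hippocampus, hypothalamus and striatum. It differed by +25.6 points (SE 3.68, limma adjusted p = 8.7e-10). Rpl41 (+22.1, SE 3.57), Rpl22l1, the paralog of Rpl22 (+21.9, SE 3.77), and the X-linked Rpl10 (+21.5, SE 3.81) completed the 5 largest, each called in full and top lists. Rpl22l1 had a top-list peak in 16 of 42 PFC libraries against 0 of 44, 6 of 41 and 0 of 45 in hippocampus, hypothalamus and striatum. It entered the top-list test through PFC alone, so its top-list call follows from how it was selected and is no separate result. Rplp0 was the exception, with a peak in 11 of 42 PFC libraries against 17 of 44, 12 of 45 and 5 of 41 in the hippocampus, striatum and hypothalamus, and a difference of −8.16 points (SE 3.17, limma adjusted p = 0.023). Without the 10 libraries with oligodendrocyte marker peaks described below, 57 members ranked higher in PFC and 0 lower, so that Rplp0 was no longer called. Rps21 was the 1 member called lower in PFC top lists (−12.4 points, SE 3.56, limma adjusted p = 0.0014), with a top-list peak in 4 of 42 PFC libraries against 12 of 44, 12 of 41 and 14 of 45.

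In the hypothalamus 22 of 79 members ranked lower and 0 higher (background 17.6% and 14.2%), and in top lists 15 of 51 lower and 0 higher (background 17.4% and 13.3%). Members that entered the top-list test through PFC alone are among the 51, and their part in the count of 15 was not tested. The median difference was −5.34 points against −1.12 over all promoters tested. Rps18, a protein of the small-subunit head, had a mean of 54.5 ± 23.2 in the hypothalamus, where it was marked in 17 of 41 full lists, and means of 86.5 ± 8.5, 73.0 ± 18.3 and 74.1 ± 21.9 in PFC, hippocampus and striatum. It differed by −22.5 points (SE 3.56, limma adjusted p = 2.7e-08). Rplp2, of the ribosomal stalk, had a peak in 25 of 41 hypothalamus libraries against 41 of 42 in PFC, 39 of 44 in the hippocampus and 38 of 45 in the striatum, with ranks of 31.4, 80.8 and 99.3 (lowest, median, highest) in the hypothalamus that overlapped those of the other brain regions. Its difference was −18.3 points, and Rpl10 (−17.8) and Rpl35a (−16.3) followed. Mitochondrial ribosomal protein genes were lower in 13 of 75 and higher in 8, and ribosome assembly genes were lower in 7 of 19. The mean of the other 3 brain regions includes PFC, where 72 of 79 members had a positive difference, and the 4 contrasts share all libraries.

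In the hippocampus 10 of 79 members ranked lower and 3 higher (background 14.4% and 12.7%). In top lists 16 of 51 ranked lower and 1 higher (background 18.9% and 6.74%). Some of the 51 reached 20% of libraries in PFC alone, such as Rpl23, with a top-list peak in 26 PFC libraries and 1 of the hippocampus. Such selection favours lower ranks in the hippocampus, and its part in the count of 16 was not tested. Rpl4, which lines the exit tunnel of the large subunit, was marked in 28 of 44 hippocampus libraries against 40 of 42 in PFC, 34 of 41 in the hypothalamus and 40 of 45 in the striatum, and ranked lower by 14.9 points (−14.9, SE 3.25, limma adjusted p = 8.7e-05). Rps12 (−13.1), Rpl7 (−12.4), Rps29 (−11.7) and Rpl27a (−10.9) also ranked lower, all but Rps12 in top lists as well. Rps10, a small-subunit protein whose RefSeq promoter sequence is printed above, went the other way: its mean was 76.8 ± 19.8 in the hippocampus against 60.5 ± 21.1, 55.4 ± 22.0 and 52.6 ± 19.1 in PFC, hypothalamus and striatum, a difference of +20.7 points (SE 3.71, limma adjusted p = 9.8e-07). In top lists it was the 1 member called higher (+10.9, SE 2.53). A top-list peak was found in 11 of 44 hippocampus libraries against 5 of 42, 2 of 41 and 1 of 45 in PFC, hypothalamus and striatum. Rps10 thus entered the top-list test through the hippocampus alone. Its top-list call follows from how it was selected and is no separate result. The 5′ end of its gene record lies 1425 bp from the RefSeq start. The sequence printed above therefore lies outside the 1 kb on either side that was ranked. A counted peak could reach past that window, and whether the difference holds at that sequence was not tested. Median top-list summits of Rps10 lay 345 bp downstream of the 5′ end of the gene record in the hippocampus (11 peaks). They lay 1033, 746 and 913 bp downstream in PFC, hypothalamus and striatum (5, 2 and 1 peaks), so the peaks were not centred alike. Rplp0 (+11.6, SE 3.13) and the retrocopy symbol Rps27rt (+11.0, SE 2.33) were the other 2 that ranked higher, neither of them tested in top lists. Rps27rt passed the filter through the hippocampus alone, so its higher rank there follows from how it was selected and is no separate result.

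In the striatum 9 of 79 members ranked lower and 1 higher (background 9.05% and 3.38%), and in top lists Rpl41 ranked lower and Rpl4 higher of 51 (background 4.01% and 2.33%). The 9 lower in full lists included Rps10 (−12.4), Rpl22l1 (−12.3), Rps27l (−11.4), Rpl14 (−11.2) and Rpl7a (−11.0). Of these, 4 were tested in top lists and 0 were called there, while Rpl14 was not tested. Rpl4 was the 1 higher, with a mean rank of 85.7 ± 17.0 and a difference of +9.88 points (SE 3.23, limma adjusted p = 0.026), and +14.0 (SE 3.90) in top lists. Without the 10 libraries with oligodendrocyte marker peaks, 14 members ranked lower and 0 higher.

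**Figure D4:**
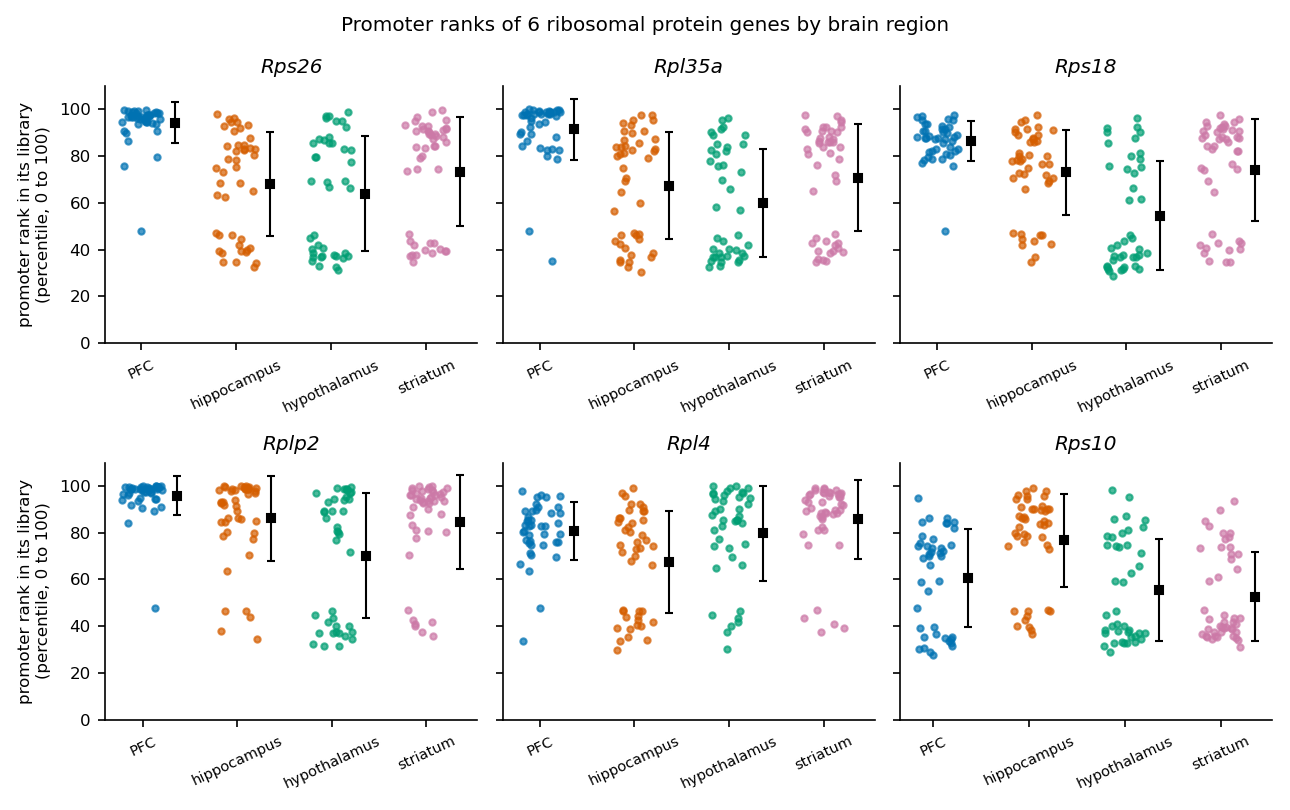
Each point is the percentile rank of a member's promoter in 1 library by brain region, from full lists, and squares with bars are means ± SD. Points between about 24 and 48 are libraries without a peak. Rps26 and Rpl35a rank highest in PFC, Rps18 and Rplp2 lowest in the hypothalamus, Rpl4 lowest in the hippocampus, and Rps10 highest in the hippocampus.

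Cell type markers were checked against the sort. Peaks at the 12 neuronal markers were found in top lists of every brain region, on average at 33.5%, 32.8%, 34.6% and 26.3% of the list from PFC to striatum. In 1 MOR-LPS library of the hippocampus, 1 MOR-LPS library of the hypothalamus and 1 SAL-LPS library of the striatum, 0 of the 12 had a top-list peak. Peaks at the 6 microglia markers were found in 0 top lists, and 0 of the 6 and 0 of the 4 endothelial markers passed the filter above. In the brain region comparison, of 9 oligodendrocyte markers tested 4 ranked higher and 1 lower in the striatum, and 1 ranked higher and 2 lower in the hippocampus. Of 3 astrocyte markers tested, 3 ranked higher in the hippocampus and 2 in the hypothalamus, and 2 ranked lower in PFC and 2 in the striatum. The part of the astrocyte markers in the members' differences between brain regions, among them the 22 members lower in the hypothalamus, was not tested. In 10 libraries, 4 or more of 9 oligodendrocyte markers had a top-list peak: 5 MOR-LPS (female 15-3, 16-0, 16-2 and 7-1 and male 14-4) and 1 SAL-SAL (female 9-4) in the striatum, MOR-LPS male 14-4 and SAL-SAL female 9-4 in PFC, SAL-LPS female 10-4 in the hippocampus and SAL-SAL female 9-4 in the hypothalamus. These libraries marked 33 to 77 members in their full lists, and results that rest on them are given with and without them.

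The treatment question was whether perinatal morphine, adult LPS or their combination altered the mark at members. It was tested on ranks of consensus regions within each library by limma, per brain region with sex as a term, over all regions of the list. Contrasts that share a group share its libraries, so their values are given side by side. Counts of member regions at an unadjusted p under 0.05 are given without the share of all regions at that threshold. They are therefore not read as a result about the members.

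In PFC 0 of 48 member regions were called in any of the 5 contrasts by limma, where 0% of 18272 regions were called in each. At an unadjusted p under 0.05 the counts were 3 (MOR-SAL minus SAL-SAL), 5 (MOR-LPS minus SAL-LPS), 4 (SAL-LPS minus SAL-SAL), 11 (MOR-LPS minus MOR-SAL) and 5 (the interaction of both treatments). The smallest p belonged to Rpl23 in MOR-LPS minus MOR-SAL, with a difference of +32.3 points (SE 8.66, limma adjusted p = 0.24). Rps29 had −29.1 points in MOR-SAL minus SAL-SAL (SE 11.0), with ranks of 42.1, 77.6 and 92.6 (lowest, median, highest) in 8 SAL-SAL and 21.0, 30.8 and 71.1 in 9 MOR-SAL libraries, at a limma adjusted p of 1.00. The groups overlapped, and the difference did not hold up against all regions tested. Rps29 encodes a small-subunit protein of the decoding head. In SAL-LPS minus SAL-SAL it had −25.7 points (limma adjusted p = 0.65), and in the interaction +45.3 (limma adjusted p = 0.55). Next in order of p were Rpl29 (+22.9) and Rpl21 (−12.0) in MOR-SAL minus SAL-SAL, Rpl29 (+22.6) and Rps27 (+18.6) in SAL-LPS minus SAL-SAL, and Rplp1 (+38.4) and Rpl41 (+22.9) in the interaction. In MOR-LPS minus SAL-LPS the 3 of smallest p were Rpl23 (+23.3), Rpl37a (+23.5) and Rps15 (+20.3), and in MOR-LPS minus MOR-SAL Rpl21 (+15.0) and Rpl28 (+30.2) followed Rpl23.

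In the hippocampus 0 of 10 member regions were called in any contrast by limma, where 0.00617% of 16201 regions were called in MOR-SAL minus SAL-SAL and in the interaction, and 0% in the other 3. Unadjusted p under 0.05 were found for 1 region in MOR-SAL minus SAL-SAL (Rpl27a, −30.4 points, SE 10.3, limma adjusted p = 0.66) and 4 in MOR-LPS minus SAL-LPS, which were Rpl10a (+23.9), Rpl21 (−22.5), Rps10 (−17.3) and Rpl27a (−22.6). Rpl27a had a peak in 11 of 11 SAL-SAL libraries (ranks 21.8, 56.5 and 86.5) and 7 of 11 MOR-SAL libraries (6.63, 29.9 and 47.0), and the ranges overlapped. In the other contrasts the smallest p belonged to Rpl10a (−15.4) in SAL-LPS minus SAL-SAL, and to Rpl31 in MOR-LPS minus MOR-SAL (+18.7) and in the interaction (+23.1).

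In the hypothalamus, where 4.31% of 13788 regions were called in MOR-LPS minus SAL-LPS, 3.86% in MOR-LPS minus MOR-SAL, 1.85% in the interaction, 0.305% in SAL-LPS minus SAL-SAL and 0% in MOR-SAL minus SAL-SAL, 0 of 14 member regions were called by limma in any. Unadjusted p under 0.05 were found for 3, 1, 0, 1 and 1 in that order. Rps27l, a paralog of Rps27 known as a p53 target, came nearest: 8 of 10 MOR-LPS libraries had a peak in its region (chr9:66945207-66946965) against 6 of 11 SAL-LPS, 10 of 12 MOR-SAL and 4 of 8 SAL-SAL. Ranks were 5.94, 78.9 and 99.2 (lowest, median, highest) in MOR-LPS and 12.5, 21.1 and 80.5 in SAL-LPS. The groups overlapped over most of their range, and the difference was +34.6 points (SE 11.3, limma adjusted p = 0.0504). Rpl21 pointed down in the same contrast: its region was marked in 9 of 10 MOR-LPS and 11 of 11 SAL-LPS libraries, with medians of 53.4 and 83.8 and a difference of −28.9 points (SE 9.66, limma adjusted p = 0.058). Rpl31 differed by +27.8 points (limma adjusted p = 0.078), and by +22.4 in MOR-LPS minus MOR-SAL and +24.9 in the interaction, where it had the smallest p of the members. Rps6, the S6 kinase substrate, had the smallest p in SAL-LPS minus SAL-SAL (+33.9 points, SE 11.5, limma adjusted p = 0.16), and Rps27l in MOR-SAL minus SAL-SAL (+29.0, SE 12.3, limma adjusted p = 0.51). With the litter of each animal as a replicate block, Rps27l passed the threshold (+34.7, SE 11.2, limma adjusted p = 0.045), and over 11 alternatives its adjusted p lay between 0.045 and 0.085. For Rpl21 the range was 0.024 to 0.091.

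In the striatum 3 member regions of 73 were called. Rpl32 and Rps27l ranked higher in MOR-LPS than in SAL-LPS (2 of 73 called, 2.31% of 60013 regions), and 1 of 73 was called in MOR-LPS minus MOR-SAL (0.258% of regions). MOR-SAL minus SAL-SAL, SAL-LPS minus SAL-SAL and the interaction had 0 of 73 by limma, with 0.00667%, 0% and 0.0167% of regions called. Unadjusted p under 0.05 were found for 23, 22, 10, 8 and 24 member regions in MOR-LPS minus SAL-LPS, MOR-LPS minus MOR-SAL, MOR-SAL minus SAL-SAL, SAL-LPS minus SAL-SAL and the interaction. Whether these counts exceed those of other striatum regions cannot be read from them. Among the 3 of smallest p in the interaction were Rpl32 (+64.2 points) and Rpl29 (+48.7), with limma adjusted p of 0.078 and 0.096. In MOR-SAL minus SAL-SAL the 3 were Rps13 (−40.1), Rpl29 (−34.6) and Rpl6 (−33.4), and in SAL-LPS minus SAL-SAL Rps18 (−24.3), Rpl4 (−18.0) and Rpl32 (−23.7).

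Rpl32, a large-subunit gene that hosts a snoRNA gene (region chr6:115808190-115809449), had a peak in 13 of 15 MOR-LPS, 4 of 13 SAL-LPS, 1 of 7 MOR-SAL and 7 of 10 SAL-SAL libraries. Ranks were 24.1, 89.0 and 94.6 in MOR-LPS and 22.1, 33.0 and 83.7 in SAL-LPS, so that the groups overlapped in range but not in their medians. The difference was +32.7 points (SE 9.49, limma adjusted p = 0.044). Rps27l (region chr9:66945030-66946874) had a peak in 11 of 15 MOR-LPS and 4 of 13 SAL-LPS libraries, with ranks of 24.1, 84.1 and 99.0 against 18.0, 33.0 and 90.5, overlapping almost throughout, and a difference of +32.7 points (SE 9.56, limma adjusted p = 0.045).

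When every list was reduced to the 10809 peaks of the shortest one, 0 member regions were called, and the differences were +28.3 points for Rpl32 (limma adjusted p = 0.079) and +20.6 for Rps27l (0.26). Without the 6 libraries with oligodendrocyte marker peaks, 5 of them MOR-LPS, the differences were +23.7 and +27.6 points and 0 member regions were called (limma adjusted p = 0.91 for both). Over 10 alternatives the adjusted p ran from 0.036 to 0.91 for Rpl32 and from 0.039 to 0.91 for Rps27l, and 6 and 4 of them kept the call. In those 6 libraries Rpl32 ranked between 89.0 and 94.6.

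Most member regions had a positive difference in the 2 contrasts of MOR-LPS and in the interaction, where the medians of promoter regions were positive too. The member regions were measured in the same libraries, so their counts are not counts of independent results. The share of promoter regions with a positive difference is not given here, and the medians are the values to compare. In MOR-LPS minus SAL-LPS 64 of 73 had a positive difference with a median of +12.7 points, against +7.58 over the 9632 promoter regions and −1.47 over all regions. In MOR-LPS minus MOR-SAL 66 of 73 were positive (median +12.7, promoter regions +6.58), and in the interaction 68 of 73 (median +20.1, promoter regions +10.2). In MOR-SAL minus SAL-SAL 13 of 73 were positive (median −7.37, promoter regions −2.75), and in SAL-LPS minus SAL-SAL 18 of 73 (median −7.22, promoter regions −3.47). In lists of equal length the members' medians were +4.96, +3.12 and +7.48 in the first 3 and −3.80 and −2.55 in the last 2, where those of promoter regions were +2.04, +2.04, +2.69, −0.13 and −0.45. Without the 6 libraries they were +5.42, +8.28, +11.5, −6.61 and −4.23, against +4.24, +3.82, +5.53, −1.26 and −1.69 over promoter regions. With the number of peaks as a term they were +11.5, +11.8, +19.0, −6.73 and −6.73, against +6.67, +5.47, +8.87, −2.33 and −3.16. List length moved with these values, since the median list held 65565 peaks in MOR-LPS, 54465 in SAL-LPS, 60553.5 in SAL-SAL and 46107 in MOR-SAL, and the medians from lists of equal length and with the number of peaks as a term stand above. Top lists of the striatum marked a median of 19 members in MOR-LPS (6 to 41), 10 in SAL-LPS (3 to 23), 16 in SAL-SAL (9 to 33) and 10 in MOR-SAL (8 to 16), so the groups overlapped.

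**Figure D5:**
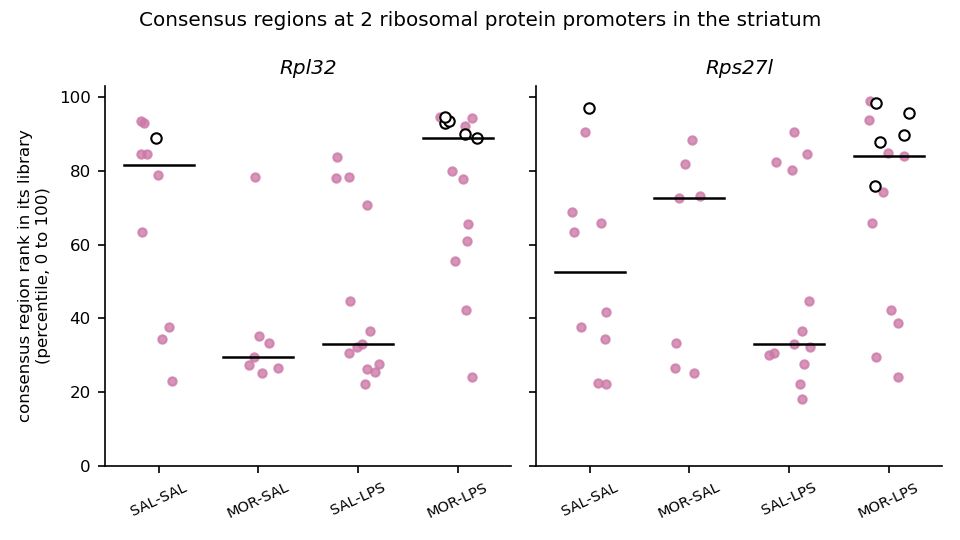
Each point is the percentile rank of a consensus region in 1 striatum library by treatment, with medians as bars, and open circles mark the 6 libraries with 4 or more of 9 oligodendrocyte markers in the top list. The MOR-LPS bar lies at 89.0 for Rpl32 and at 84.1 for Rps27l, where the SAL-LPS bars lie at 33.0.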

How the data were processed

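H3K27ac peak lists of 174 libraries and 4 consensus lists were used, and 32 input libraries were not. The authors trimmed reads (Trim Galore 0.6.7), aligned them to mm10 (Bowtie2 2.4.5, SAMtools 1.15.1) and called peaks in each library with MACS2 2.2.7.1 at q 0.05. For every peak the authors deposited −log10 p and −log10 q, the fold enrichment, which is a ratio over local background, and a whole-number score made from −log10 q. Consensus lists (DiffBind 3.10.1) hold positions alone. The lists hold no read counts, so read depth is unknown, the number of peaks stood in for it, and no count model was run. Library lists ran from 10809 to 143516 peaks.

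Hippocampus SAL-LPS males 1-2 and 5-2 had identical lists and counted as 1, and PFC SAL-SAL female 9-2, with under 10000 peaks, was left out, which gave 172 libraries. The PFC list labelled MOR-LPS female 12-2 names its peaks for animal 12-0, and the label was used.

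Promoters and consensus regions took the highest −log10 p of peaks overlapping by at least 1 bp and were ranked within the library. Groups were compared with limma 3.58.1 in R 4.3.3 (mean-variance trend, Benjamini-Hochberg adjustment, two-sided). Treatment fits had sex as a term, and brain region fits treatment and sex. The scripts were tested on simulated data. Named promoters were, per brain region, the 5 with the largest called differences each way, per treatment contrast those called or, with none, the 3 of smallest p, the 10 members marked most and the 10 marked least often, and paralog symbols. The results of some of these are not reported here. Gene promoters in the treatment contrasts, fits with the style of peak names as a term, and fits without libraries with oligodendrocyte markers or without short lists were chosen after seeing the data. Members and gene lists were chosen with earlier results of these data known.

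The number before the dash in an animal's label, read as its litter though the labels do not say so, served as a replicate block in an alternative fit. Same-litter libraries correlated at 0.0336 in PFC, 0.00142 in hippocampus, −0.0159 in hypothalamus and −0.00146 in striatum, and libraries of 1 animal at 0.0195 across brain regions.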

Additional observations from a re-analysis of the deposited data

Results flagged for a closer look

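In 2 of the 14 combinations of group and list length that were tested, the lowest library stood apart from its group by Dixon's criterion, which chance meets in about 1 of 20 groups. In PFC the MOR-SAL male library 13-1 marked 0 of 85 members in its full list, where the next lowest of the 9 libraries marked 53, a gap of 0.707 of the range. Its list was the shortest of the brain region, with 11304 peaks and 917 protein-coding genes marked. In the hypothalamus the SAL-SAL female library 10-3 marked 3 members, where the next lowest of 8 marked 30, a gap of 0.6 of the range. Its list was also the shortest there, with 20166 peaks and 1636 genes marked.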

How the results depend on the processing

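Brain region counts held within 1.5 times for PFC (57 members called), hippocampus (13) and hypothalamus (22) under every alternative run. The striatum count of 10 became 2 in top lists, with or without the number of peaks as a term, 4 with −log10 q of at least 3, 4 with a window of 500 bp, 5 (2 higher, 3 lower) with the number of peaks as a term and 20 (6 higher, 14 lower) with no filter. Of the values of single members, 270 kept direction and call and 22 lost the call. Treatment regions gave 598 unchanged, 4 newly called and 13 lost, and 0 reversed.

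Member regions called over the 5 treatment contrasts stayed at 0 in PFC and hippocampus. The hypothalamus count of 0 became 1 by rank of fold enrichment, with the litter as replicate block (Rps27l), with oligodendrocyte and astrocyte shares as terms, and without the libraries with oligodendrocyte marker peaks. The striatum count of 3 became 6 by fold enrichment and 6 with a minimum of 20% of libraries, and 0 in lists of equal length, with both marker shares as terms, and without the 6 marker libraries. On gene promoters it was 1 in full lists, with the block and with the number of peaks as a term, and 0 in top lists. The replicate block changed no other call except in the striatum brain region contrast, with 11 called in place of 10. The cause of each change was not tested.

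Leaving out 1 library at a time gave 0 in PFC and hippocampus, 0 to 2 in the hypothalamus and 1 to 8 in the striatum. In the striatum Rpl32 was called in 30 of 45 fits (adjusted p 0.0204 to 0.101) and Rps27l in 28 (0.0213 to 0.0876). The count was 1 without MOR-LPS 15-3, 16-0, 16-2, 7-1 or 14-4 or SAL-LPS 10-0, 10-2, 3-1, 4-4, 9-1 or 9-3. It was 5 to 8 without MOR-LPS 12-2, 13-0, 17-1 or 6-0, MOR-SAL 7-2, SAL-LPS 10-4, 1-4 or 5-2, or SAL-SAL 10-1, 4-1, 9-2, 9-4 or 3-2. The hypothalamus count was 2 without MOR-LPS 13-2 or 6-0, and 1 without MOR-LPS 18-1 or 7-1, MOR-SAL 15-4 or 18-0, SAL-LPS 10-4, 9-1, 1-2, 11-0 or 3-3, or SAL-SAL 4-1, 9-4 or 3-2. Shares of members marked were 35.5%, 12.9%, 14.6% and 18.1% in top lists, 75.9%, 54.1%, 49.4% and 51.6% in full lists, and 74.0%, 48.2%, 43.1% and 47.6% in full lists with −log10 q of at least 3.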
